A study of Homo sapiens with 10 samples.

Results

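Cells of H460, an established human lung cancer cell line, that survived doxorubicin were compared with untreated H460 cells by sequencing of poly(A) RNA. The doxorubicin-resistant (DR) cells had received 0.5 µM doxorubicin for 3 days and fresh medium for 3 days, were then re-plated, and gave RNA on day 8 from the cells that attached. The parental cells were H460 cells in 2D culture with no drug. The comparison used 4 of the 10 libraries of the series, 1 of DR cells and 3 of parental cells, chosen by their labels and not by any measured value. Other H460 cells had survived the same schedule with 4 µM cisplatin (CR, 1 library) or 0.005 µM paclitaxel (PR, 2 libraries), and these served as a second reference. DR cells were a bulk population of survivors, so fewer cells of a kind and less RNA per cell cannot be told apart.

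Doxorubicin is an anthracycline that slips between the bases of DNA and traps topoisomerase II on the strands it has cut, which leaves double-strand breaks. Broken DNA activates the ATM kinase and p53, a transcription factor whose best-known target, the CDK inhibitor p21 (CDKN1A), stops the cell cycle. Cells that stay arrested can take on a senescent state, known for enlarged lysosomes, loss of lamin B1 and secretion of cytokines, proteases and their inhibitors.

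The DR library held 89541774 gene counts and the parental libraries 65670034 to 73644667. Levels are given as FPKM, which scales counts by transcript length and library size, and differences as differences in log2(FPKM + 1), a scale that understates changes of low genes. A gene lay outside the parental range when DR cells were more than 2-fold beyond every one of the 3 parental libraries on that scale. Since DR cells had 1 library, the test was an edgeR quasi-likelihood fit to the counts of the 3 parental, 1 CR, 2 PR and 1 DR libraries together, in which the DR library is assumed to vary like the parental and PR replicates. Genes are said to have risen or fallen where the Benjamini-Hochberg adjusted p of that fit, given below as the adjusted p, was under 0.05. The labels do not say whether the parental libraries came from separate cultures, so these p-values may measure technical spread. Folds are ratios of FPKM between DR cells and the parental mean. In the check of the cell line, the keratins KRT8 and KRT18 were at 751 and 285 in DR cells (parental, 379.7 to 447 and 233 to 349) and vimentin (VIM) at 859 (761 to 964), whereas the epithelial markers CDH1 and EPCAM were at 0.0266 and 0.0240 (parental, at most 0.00230 and 0.114). Of 4 epithelial markers tested 0 rose and 0 fell, and of 6 mesenchymal markers S100A4 rose 3.99-fold (adjusted p = 0.0187) and none fell.

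Of 11784 genes with a mean FPKM of at least 1 over the 4 libraries, 752 (6.38%) lay outside the parental range, 337 (2.86%) above it and 415 (3.52%) below. The DR library enters that mean, so genes with a parental mean under 1 passed the filter only through a higher DR value. Such genes could lie above the parental range but not below it. With no filter on low FPKM, 402 genes lay above the range and 415 below. The edgeR test called 840 genes (7.13%), of which 444 rose (3.77%) and 396 fell (3.36%), and 669 genes met both criteria. The median difference over all genes tested was -0.04. The parental libraries were themselves more than 2-fold apart at 336 to 772 genes a pair, and the DR library differed from parental 1, 2 and 3 at 1985, 1736 and 1233 genes. Parental 3 was the closest to DR cells, and without it 1233 genes lay outside the range and edgeR called 1292.

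The number of calls depended on parental 2, without which edgeR called 244 genes, 184 higher and 60 lower. The library names have a pair of written forms, with or without a hyphen before the year. One is shared by DR, CR, PR 2 and parental 2 and the other by parental 1, parental 3 and PR 1. The name of PR 1 also ends in "exp", which no other name does, and it was grouped by the hyphen alone. What the forms and this ending stand for is not given. With the form as a covariate 76 genes passed, 66 higher and 10 lower, all of them among the 840, and all 840 kept their direction. Counts of the gene groups with calls are therefore also given for these settings, as "without parental 2" and "with the name form". The shares of all genes tested to set beside the main counts are 3.77% risen and 3.36% fallen. Those above and below every parental library are 29.5% and 31.9%.

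**Figure D1:**
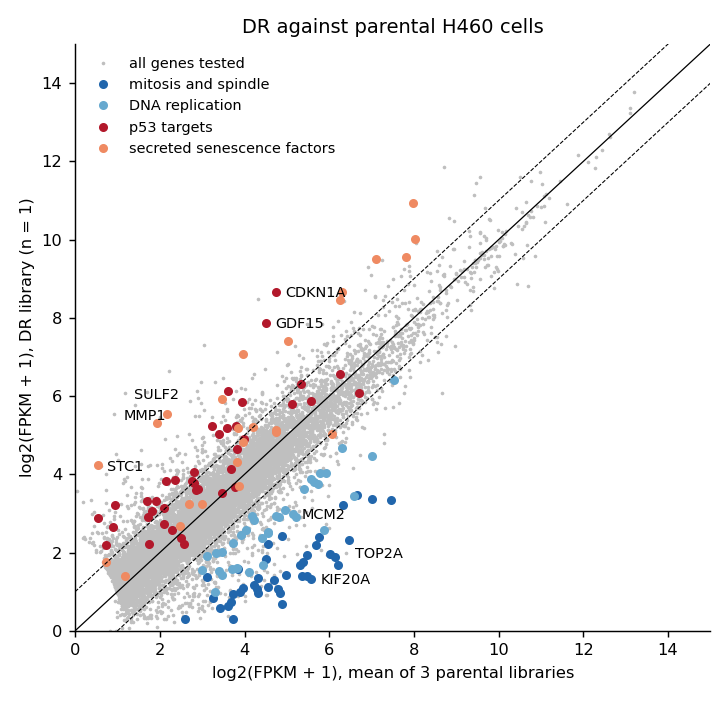
Level of each of the 11784 genes tested in the DR library (vertical axis, 1 library) against the mean of the 3 parental libraries (horizontal axis), both as log2(FPKM + 1), with 4 gene lists in colour, a solid line for equal levels and dashed lines for 2-fold. The 40 mitosis and 35 replication genes lie below the solid line, and 35 of the 39 p53 targets above it.

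Doxorubicin targets the isoforms of topoisomerase II. TOP2A (NCBI Gene 7153), the isoform of dividing cells, was the gene farthest below the parental range, with an FPKM of 86.2, 95.2 and 69.2 in parental 1, 2 and 3 and 2.99 in DR cells. All parental values were more than 20 times the DR value, which was 28.0-fold lower than the parental mean of 83.6 ± 13.2 (SD, n = 3), with an edgeR log2 fold change of -4.74 (SE 1.15, adjusted p = 0.0377). Its adjusted p ranged from 0.000453 to 0.108 over the alternative fits. The PR replicates, which enter the estimate of the spread, were apart at this gene, with 15.3 in PR 1 and 1.54 in PR 2. TOP2B, the isoform also present in resting cells, was 19.8, 22.4 and 18.9 in the parental libraries and 8.57 in DR cells, more than 2-fold below each of them, and did not pass the test (adjusted p = 0.079). TDP1, which removes topoisomerase I from DNA ends, fell 2.52-fold from 10.8 ± 1.66 (SD, n = 3) to 4.27 (adjusted p = 0.0442). TDP2, which does the same for topoisomerase II, was at 24.8, within the parental range of 19.6 to 33.8. Of 14 topoisomerases and genes of their repair, 2 fell and 0 rose, and 11 lay below every parental library, against 31.9% of all genes tested. The count that fell was 0 without parental 2, 0 with the name form and 5 with DESeq2.

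Genes of mitosis were the group farthest below the parental cells. All 40 genes of the mitosis and spindle list lay more than 2-fold below every parental library (all genes tested, 3.52%), and all 40 fell in the test (3.36%). The median log2 difference was -3.37 against -0.04 for all genes tested, and -3.36, -3.69 and -2.97 against parental 1, 2 and 3 singly. Without parental 2 the count was 10, and with the name form it was 1, CENPA, the histone variant of centromeres, which fell 18.8-fold. KIF20A, a kinesin of the spindle midzone, was 45.3, 52.9 and 42.7 in the parental libraries and 1.503 in DR cells, a 31.2-fold fall (adjusted p = 0.0205). CENPF, a kinetochore protein, was 24.5, 32.3 and 29.7 against 0.610 (adjusted p = 0.019). STMN1, which destabilizes microtubules, was 65.2, 121 and 47.9 against 2.19 (adjusted p = 0.00825). In all of these the lowest parental library stood more than 20 times above the DR library.

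The mitotic kinases PLK1 and AURKB fell 22.4-fold and 27.1-fold, the anaphase activator CDC20 26.6-fold, the cyclin CCNB2 24.5-fold, and UBE2C, the ubiquitin-conjugating enzyme of the anaphase-promoting complex, 22.8-fold. NEK2, a kinase of centrosome separation, fell 25.2-fold from 22.1 ± 5.27 (SD, n = 3) to 0.876, and TROAP, a spindle protein, fell 25.8-fold to 0.877. The smallest change in the list was that of INCENP, a partner of AURKB, which was 9.15, 5.88 and 8.18 in the parental libraries and 1.61 in DR cells (adjusted p = 0.0229).

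Promoters of TOP2A and of 4 mitosis genes are shown because many genes of the late cell cycle are known to carry CCAAT boxes, bound by NF-Y, and the cell cycle homology element TTTGAA, through which the DREAM complex represses them in resting cells. Each sequence is the 200 bases before the transcription start in RefSeq (GRCh38.p14), 5′ to 3′ on the strand of the gene, with CCAAT and TTTGAA or their reverse complements ATTGG and TTCAAA in capitals.
TOP2A (chr17:40417897-40418096, minus strand): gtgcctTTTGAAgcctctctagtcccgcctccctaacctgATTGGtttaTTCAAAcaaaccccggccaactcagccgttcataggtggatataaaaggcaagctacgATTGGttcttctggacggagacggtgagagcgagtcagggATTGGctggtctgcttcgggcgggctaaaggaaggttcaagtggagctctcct
PLK1 (chr16:23678689-23678888, plus strand): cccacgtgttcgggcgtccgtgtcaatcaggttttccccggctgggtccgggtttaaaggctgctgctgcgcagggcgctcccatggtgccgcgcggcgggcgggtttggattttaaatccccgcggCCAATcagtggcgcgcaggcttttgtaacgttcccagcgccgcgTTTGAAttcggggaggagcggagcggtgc
CDC20 (chr1:43358781-43358980, plus strand): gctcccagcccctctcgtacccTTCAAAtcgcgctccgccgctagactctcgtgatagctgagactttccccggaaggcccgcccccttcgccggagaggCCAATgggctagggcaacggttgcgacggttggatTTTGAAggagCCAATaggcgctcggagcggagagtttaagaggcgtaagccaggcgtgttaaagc
CCNB2 (chr15:59104946-59105145, plus strand): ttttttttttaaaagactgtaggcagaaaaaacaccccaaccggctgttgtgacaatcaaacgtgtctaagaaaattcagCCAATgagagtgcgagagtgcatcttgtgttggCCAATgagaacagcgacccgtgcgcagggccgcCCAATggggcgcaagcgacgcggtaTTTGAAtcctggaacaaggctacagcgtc
KIF20A (chr5:138178912-138179111, plus strand): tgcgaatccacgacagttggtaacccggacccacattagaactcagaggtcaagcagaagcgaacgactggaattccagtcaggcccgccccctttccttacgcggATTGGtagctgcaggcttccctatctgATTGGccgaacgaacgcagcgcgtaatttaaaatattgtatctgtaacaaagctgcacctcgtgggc
The first 4 hold both motifs, and KIF20A holds a pair of reversed CCAAT boxes but no TTTGAA in the window from 250 bases before to 50 after the start. In that window, searched on both strands, CCAAT was found in 26 of the 35 mitosis genes with a sequence (74.3%), TTTGAA also in 26 (74.3%), and both in 19 (54.3%). Over all 27305 promoters the shares were 35.7%, 15.4% and 6.08%, and over the 9149 genes tested with a sequence 37.3%, 9.68% and 4.16%. Of 30 replication genes with a sequence, 17 held CCAAT (56.7%) and 1 held TTTGAA (3.33%). GGGCGG, the GC box, was found in 68.6% of the mitosis and 66.7% of the replication promoters, against 71.6% of the genes tested and 44.6% of all promoters. CCAAT can share 1 base with TTTGAA and 2 with GGGCGG on one strand or the other. A match is a run of letters and was not tested as a binding site.

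DNA replication genes were lower by a smaller factor. Of 35 genes, 27 fell (all genes tested, 3.36%) and 0 rose. All 35 lay below every parental library (31.9%), 31 of them by more than 2-fold (3.52%), with a median log2 difference of -1.87. Without parental 2 the count that fell was 2, and with the name form 0. TK1, thymidine kinase of the salvage pathway, was 60.2, 66.6 and 48.9 in the parental libraries and 5.02 in DR cells, an 11.7-fold fall (adjusted p = 0.0249). The DR value stood far below the whole parental range. The licensing factor CDT1 fell 8.85-fold, CDC45 of the replicative helicase 9.42-fold, and its subunits MCM7 and MCM2 6.18-fold and 5.02-fold. PCNA, the sliding clamp, was 218, 222 and 129 against 83.9, and with RRM2 and CDC6 it did not pass (adjusted p = 0.0999, 0.0616 and 0.0821).

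In the list of cyclins, CDKs and E2F factors 11 of 31 genes fell and 1 rose. The transcription factors MYBL2 and FOXM1 fell 13.6-fold and 14.9-fold and cyclin A2 (CCNA2) 15.1-fold. Cyclin D1 (CCND1) was 33.0, 17.3 and 17.1 in the parental libraries and 103 in DR cells and rose 4.57-fold (adjusted p = 0.00913). The G1 kinases CDK4 and CDK6 did not pass (adjusted p = 0.176 and 0.503), and cyclin E1 (CCNE1) at 4.91 lay within the parental range of 3.32 to 8.01. Without parental 2, 1 of the genes of this list fell and 1 rose, and with the name form 1 fell and 0 rose, so that the call of CCND1 was lost (adjusted p = 0.0625). Of 5 CDK inhibitors tested, CDKN1A, described below, rose, CDKN2C fell 4.89-fold and CDKN3 13.0-fold, and the rest of the 5 did not pass. CDKN2B was listed at 0 in all 4 libraries, and CDKN2A at 0 in the parental libraries and 0.0229 in DR cells. Both were below the filter and were not tested. In this list 1 rose and 0 fell without parental 2, and 1 and 0 with the name form.

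Repair genes were lower too. Of 29 genes of homologous recombination and the Fanconi pathway, 18 fell and 0 rose, with a median log2 difference of -1.39. These included EXO1, which resects DNA ends (11.2-fold), the helicase BLM (14.7-fold), BRCA1 (5.70-fold) and FANCD2 (6.66-fold). Without parental 2 the count was 1 and with the name form 0. Of 22 genes of end joining and damage signalling 2 fell, with a median of -0.51. They were POLQ, the polymerase of microhomology-mediated joining (10.2-fold), and H2AX, the histone variant phosphorylated at breaks, which was 44.2, 25.8 and 19.98 in the parental libraries and 6.25 in DR cells. The count of this list was 0 without parental 2 and 0 with the name form. ATM was at 3.29, within the parental range of 3.10 to 3.69, and the Ku genes XRCC5 and XRCC6 were at 95.7 and 108 against 109 to 179 and 137 to 243, without passing. The difference between these lists was not tested.

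In the list of lamina and HMG proteins 7 of 12 fell, 2 without parental 2 and 0 with the name form. Lamin B1 (LMNB1), a nuclear envelope protein whose loss marks senescent cells, was 70.9, 59.9 and 45.1 in the parental libraries and 4.86 in DR cells (12.1-fold, adjusted p = 0.0267). The chromatin protein HMGB2 fell 17.7-fold from 56.5 ± 15.1 (SD, n = 3). Lamin A (LMNA) was at 253 against 175 to 214 and did not pass.

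**Figure D2:**
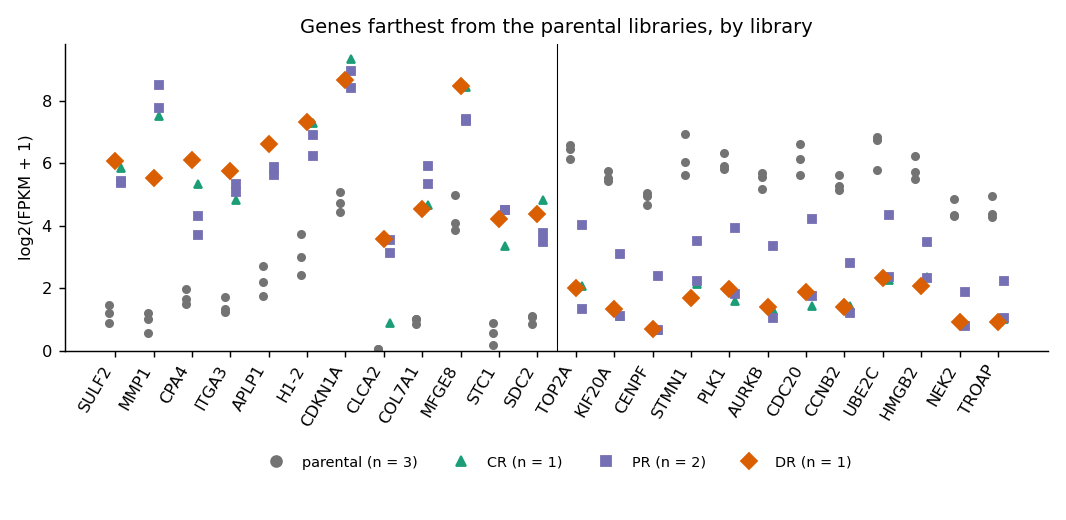
Level as log2(FPKM + 1) of the 12 genes farthest above (left of the line) and the 12 farthest below (right) the nearest parental library, with 1 symbol for each of the 3 parental, 1 CR, 2 PR and 1 DR libraries. The DR symbol lies outside the parental symbols for all 24 genes, and for the 12 genes on the right 1 of the PR symbols, PR 1, lies between the parental symbols and the other drug-survived libraries.

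Targets of p53 were higher. Of 39 tested, 20 rose and 0 fell, 17 lay more than 2-fold above every parental library, and 35 lay above every parental library, against 29.5% of all genes tested. The median log2 difference was 1.07, and 1.05, 1.06 and 1.16 against parental 1, 2 and 3 singly. Without parental 2 the count that rose was 11, and with the name form 5 (CDKN1A, TP53I3, TRIM22, SPATA18 and ZMAT3). CDKN1A (NCBI Gene 1026) was 33.0, 25.3 and 20.7 in the parental libraries and 404 in DR cells, 15.3-fold higher than their mean, with an edgeR log2 fold change of 4.02 (SE 0.317, adjusted p = 0.000407). GDF15, a secreted stress cytokine, was 34.1, 13.8 and 21.8 against 233. TP53I3, a quinone oxidoreductase, was 12.2, 11.2 and 10.1 against 69.1. For each of the 3 genes the DR value was more than 5 times the highest parental value.

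MDM2, the ubiquitin ligase of p53, rose 2.86-fold, the growth arrest gene GADD45A 3.29-fold and the death receptor FAS 3.14-fold. BAX, which permeabilizes mitochondria, was 57.0, 51.4 and 34.3 in the parental libraries and 57.4 in DR cells, BBC3 (PUMA) was at 3.64 against 2.05 to 2.82, and PMAIP1 (NOXA) at 3.69 against 3.79 to 5.81, and these 3 did not pass. In the BCL2 family list 0 of 12 genes passed edgeR, DESeq2 or limma, and 1 had an unadjusted edgeR p under 0.05.

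Secreted factors of the senescent state were also higher. Of 32 genes in the list 25 passed the filter. Of these 25, 13 rose (all genes tested, 3.77%), 0 fell and 12 lay more than 2-fold above every parental library (2.86%). The median log2 difference was 1.33. The count that rose was 9 without parental 2 and 5 with the name form. STC1, a secreted glycoprotein hormone, was 0.128, 0.838 and 0.483 in the parental libraries and 17.7 in DR cells and rose 36.7-fold, with an edgeR log2 fold change of 5.26 (SE 0.637, adjusted p = 0.00265). With a parental mean of 0.483, it passed the filter only through the DR value. The IGF-binding proteins followed, with IGFBP7 at 14.4, 14.7 and 14.6 against 134 and IGFBP4 at 1.91, 4.22 and 4.95 against 45.4. In all 3 genes DR cells stood more than 9 times above the highest parental library. The plasminogen activators PLAU and PLAT rose 5.01-fold and 5.71-fold, and the cytokines IL6, CXCL8 and CXCL1 5.05-fold, 4.55-fold and 5.19-fold. IL1A, a cytokine upstream of many of these, was at 1.64, within the parental range of 0.841 to 2.42, and the chemokine CXCL5 at 31.8, within 31.4 to 117.

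SULF2 (NCBI Gene 55959), an extracellular enzyme that removes sulfate from heparan sulfate, was the gene farthest above the parental range, at 1.73, 0.838 and 1.30 in the parental libraries and 66.4 in DR cells (51.4-fold, adjusted p = 0.000407). MMP1, interstitial collagenase, was 1.30, 1.03 and 0.478 against 45.2 (48.3-fold, adjusted p = 0.000407). COL7A1, the anchoring fibril collagen, was 1.03, 0.810 and 1.01 against 22.0 (23.2-fold, adjusted p = 0.000347). In each the DR value was more than 20 times the highest parental value. With parental means of 0.935 and 0.949, MMP1 and COL7A1 passed the filter only through the DR value. The integrin ITGA3, a laminin receptor, rose 31.1-fold, the carboxypeptidase CPA4 29.8-fold, the amyloid precursor-like protein APLP1 25.5-fold, the syndecan SDC2 19.2-fold, and MFGE8, which bridges integrins and dying cells, 17.8-fold. CLCA2, a membrane protein and known p53 target, had 14, 2 and 11 counts in the parental libraries and 4239 in DR cells (FPKM 10.9, adjusted p = 0.000278). Its parental mean FPKM was 0.0255, so CLCA2 too passed the filter only through the DR value.

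In the list of matrix proteins 5 of 22 rose and 1 fell (all genes tested, 3.77% and 3.36%), and 19 lay above every parental library (29.5%). Fibronectin (FN1) was 467, 171 and 911 in the parental libraries and 3691 in DR cells (adjusted p = 0.0351), more than 4 times the highest of them, although the parental libraries were themselves spread. The laminin chains LAMA3 and LAMB3 rose 4.02-fold and 6.66-fold, while the fibrillar collagen COL3A1 fell 4.77-fold from 20.5 ± 6.45 (SD, n = 3). Without parental 3, 15 of these genes rose, without parental 2 4, and with the name form 3. In the list of matrix proteases 2 of 13 rose, MMP1 and ADAMTS6, and none fell, with 2 without parental 2 and 1 with the name form.

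Of 29 lysosomal genes 10 rose (all genes tested, 3.77%), 0 fell and 25 lay above every parental library (29.5%), with a median log2 difference of 0.91. The cathepsin CTSD was 188, 110.3 and 166 in the parental libraries and 714 in DR cells (4.61-fold, adjusted p = 0.00877). The acid alpha-glucosidase GAA was 12.6, 12.4 and 22.3 against 71.1, and the saposin precursor PSAP 252, 242 and 294 against 968. These DR values were more than 3 times the highest parental values. GLB1, the beta-galactosidase behind the usual stain for senescence, was at 30.6 against 19.9 to 24.0 (adjusted p = 0.299). Without parental 2 the count was 5 and with the name form 0.

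**Figure D3:**
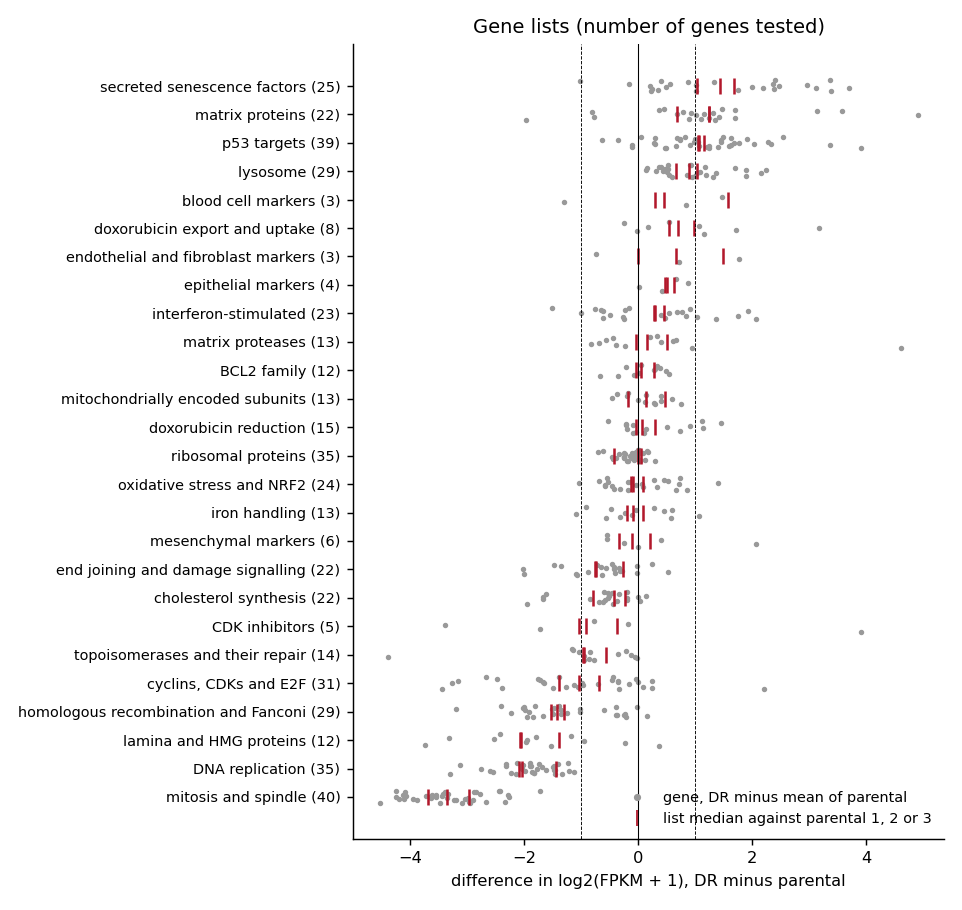
Difference in log2(FPKM + 1), DR minus parental, for the genes of 26 lists with the number tested in brackets, where grey dots are genes against the mean of the 3 parental libraries, red ticks are list medians against each parental library, and dashed lines mark 2-fold. The ticks of the mitosis list lie at -3.36, -3.69 and -2.97 and those of the p53 targets at 1.05, 1.06 and 1.16.

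Genes that export or reduce doxorubicin were examined next. ABCB1, the P-glycoprotein that pumps doxorubicin out of cells, was at 0.255, 0.103 and 0.0646 in the parental libraries and 0.196 in DR cells, so these overlapped. The exporters ABCC1, ABCC2 and ABCC3 were 2.15-fold, 2.096-fold and 3.11-fold higher without passing (adjusted p = 0.187, 0.0699 and 0.106), and ABCG2 at 15.2 lay within 11.0 to 18.3. MVP, the major vault protein, was 3.74, 4.43 and 9.81 against 57.8 and was the 1 gene of 8 tested that rose (9.64-fold, adjusted p = 0.00766), against 3.77% of all genes tested. The count in this list was 1 without parental 2, 0 with the name form and 3 with DESeq2. Of 15 reductases and related enzymes that can reduce the drug, AKR1A1 and AKR1C1 rose, 2.20-fold and 2.70-fold. The count was 1 without parental 2, 0 without PR 1, 0 without PR 2, 0 with the name form and 5 with DESeq2. AKR1B10 and NQO1 had the highest levels of that list, 1461 and 1790.1 in DR cells against 884 ± 134 (SD, n = 3) and 843 ± 267 (SD, n = 3), and did not pass.

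Among 24 oxidative stress and NRF2 genes edgeR called 0, with 4 at an unadjusted p under 0.05, and among 13 genes of iron handling 0, with 4. DESeq2 called 1 gene in each direction in either list, and limma called 0. None of 35 ribosomal protein genes and none of 13 mitochondrially encoded genes passed edgeR, DESeq2 or limma, and the count at an unadjusted edgeR p under 0.05 was 0 in either list.

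Interferon-stimulated and sterol genes moved in part. Of 23 interferon-stimulated genes tested, 5 rose, among them IFIT1, IFIT2, IFIT3 and ISG15, and OAS3, a sensor of double-stranded RNA, fell 3.27-fold. The counts were 3 higher and 1 lower without parental 2, 3 and 0 without PR 1, 3 and 0 without PR 2, and 1 and 0 with the name form. ISG15, a ubiquitin-like modifier, was 2.77, 5.42 and 3.77 in the parental libraries and 19.4 in DR cells, and IFIT2, which binds viral RNA, 0.477, 0.852 and 0.726 against 5.34, both above the whole parental range. With a parental mean of 0.685, IFIT2 passed the filter only through the DR value. Of 22 genes of cholesterol synthesis 3 fell and 0 rose. These were ACAT2, EBP and STARD4 (4.33-fold, 3.35-fold and 3.96-fold). The count was 1 without parental 2 and 0 with the name form.

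Of the genes the study followed, SEZ6L2, a membrane protein, was 3.21, 2.101 and 4.54 in the parental libraries and 18.2 in DR cells and rose 5.53-fold (adjusted p = 0.0088, and 0.0612 with the name form). CHPF, chondroitin polymerizing factor, was 12.3, 9.89 and 11.0 against 48.1 and rose 4.34-fold (adjusted p = 0.00314, and 0.044 with the name form). Both DR values lay above the whole parental range. ANXA2, a membrane-binding annexin, was at 873 against 376 to 595 and did not pass (adjusted p = 0.122). SMARCA4, a chromatin remodeller, and PAF1, an elongation factor, were at 18.4 and 16.8 against 17.2 to 31.3 and 18.4 to 20.5, and TNF was listed at 0 in all 4 libraries.

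Markers of other cell types were low in part. Of 7 blood cell markers 3 passed the filter on low values, and the summed FPKM of the list was 22.0 to 27.9 in the parental libraries and 58.9 in DR cells, of which CD68, a lysosomal glycoprotein that rose 2.87-fold, made up 46.5 and CD14 11.8. HBA1, a haemoglobin chain, fell from 2.28 ± 1.42 (SD, n = 3) to 0.263. PTPRC was at 0 in the parental libraries and 0.157 in DR cells, and CD3E at 0 and 0.0582. Of 8 endothelial and fibroblast markers 3 passed the filter, and their sum was 6.95 to 15.9 in the parental libraries and 32.1 in DR cells, of which the actin ACTA2, which rose 3.66-fold, made up 27.3. PECAM1 was at 0 and 0.00899. The calls of CD68, HBA1 and ACTA2 were lost without parental 2 and with the name form. The part of these markers in the results above was not tested.

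DR cells were then set against the other drug-survived cells. In edgeR 0 of 11784 genes (0%) passed between DR cells and the mean of CR and PR cells, with 53 at an unadjusted p under 0.05. limma called 0, with 70 at an unadjusted p under 0.05, and DESeq2 called 2, named here after their values were seen. They were MMP1, lower in DR cells (DESeq2 adjusted p = 0.0131), and NPTX1, a neuronal pentraxin, higher (adjusted p = 0.0131). MMP1 was 45.2 in DR cells, 182 in CR cells and 219.6 and 364 in PR cells, so that DR cells lay between the parental and the other drug-survived cells. NPTX1 was 4.79 against 0.599 in CR cells and 1.098 and 2.19 in PR cells. With a parental mean of 0.435, NPTX1 passed the filter only through the DR value. DR and CR cells were more than 2-fold apart at 51 genes, DR and PR cells at 189 and 176, and the PR replicates at 135. With 1 library each, this does not show that DR and CR cells were alike.

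**Figure D4:**
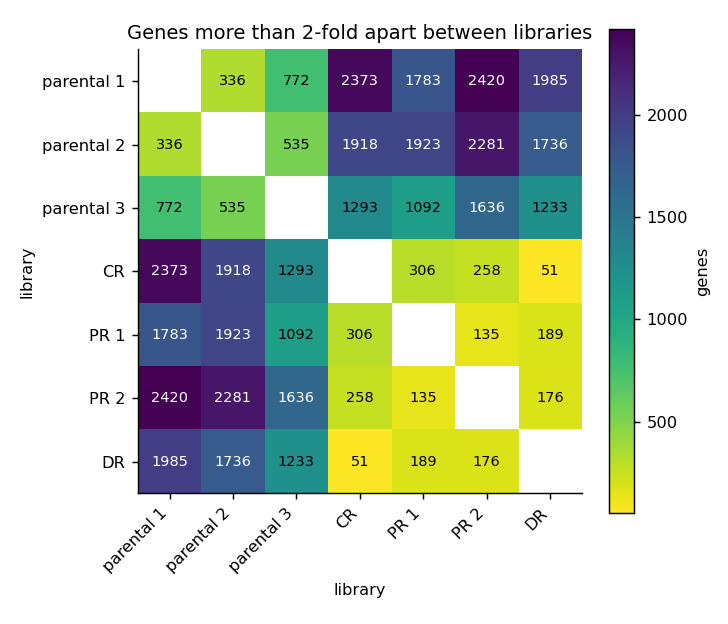
Number of the 11784 genes tested that differ more than 2-fold on the log2(FPKM + 1) scale between each pair of the 7 adherent H460 libraries, with colour following the number in each cell. The DR library differs from CR at 51 genes, from PR 1 and PR 2 at 189 and 176, and from the parental libraries at 1233 to 1985.

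DR cells lay more than 2-fold above all 3 other drug-survived libraries at 2 genes (0.017%), UBE2F-SCLY and GACAT2, and below all 3 at 2 (0.017%), MMP1 and LUM. UBE2F-SCLY is a read-through of neighbouring genes that share its exons, so its level is uncertain. In the parental libraries LUM was 0.237 to 2.76, a range that held the DR value of 0.362. UBE2F-SCLY was 0.0134 to 2.49 there and GACAT2 1.17 to 2.57, against 3.49 and 6.10 in DR cells. DR cells were more than 2-fold above both PR libraries at 15 genes and below both at 35, but edgeR called 0 genes (0%) between DR and PR cells, with 312 at an unadjusted p under 0.05, so the values that follow are a description. CPA4 was 68.3 in DR cells and 12.0 and 19.0 in PR cells, OAS1, a sensor of double-stranded RNA, 188 against 68.9 and 80.4, and CKB, brain creatine kinase, 164 against 63.7 and 70.8. CR cells were nearer to DR cells at these 3 genes, at 39.5, 165 and 141. In the parental libraries CPA4 was 1.79 to 2.91 and OAS1 76.1 to 138, below DR cells, and CKB was 195 to 295, above them. On the lower side the chaperone CRYAB was 87.7 against 249.2 and 332, the oxidase CYP1B1 97.7 against 329.7 and 262, and the haem oxygenase HMOX1 11.4 against 32.9 and 48.1. The NF-kappaB inhibitor NFKBIA was 38.5 against 89.7 and 126, and IL1A 1.64 against 6.63 and 14.8. In the parental libraries CRYAB was 9.01 to 11.2, CYP1B1 51.6 to 54.8 and NFKBIA 17.4 to 28.0, all below DR cells. HMOX1 was 10.7 to 32.1 there and IL1A 0.841 to 2.42, and these ranges held the DR values. Against CR cells CLCA2 was 10.9 against 0.842, with 10.8 and 7.64 in PR cells.

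Gene lists differed in where DR cells stood among the 4 drug-survived libraries. Of 15 reductases 11 were highest in DR cells (73.3%, against 20.2% of all genes tested), among them AKR1B10 at 1461 against 733 to 1236, NQO1 at 1790.1 against 799 to 1479.6 and AKR1A1 at 85.2 against 40.5 to 75.8. Of 39 p53 targets 21 were lowest in DR cells (53.8%, against 19.2%), with MDM2 at 36.9 against 47.6 to 71.1 and GADD45A at 31.7 against 42.2 to 75.2. Other lists also differed from all genes tested. Lowest in DR cells were 7 of 12 BCL2 family genes (58.3%) and 9 of 25 secreted senescence factors (36%). Of 22 cholesterol synthesis genes, 10 were highest (45.5%) and 0 lowest. In the mitosis list all 40 genes were lower in DR cells than in PR 1, with a median log2 difference of -1.15, while 32 were higher than in PR 2 and 27 higher than in CR cells, with medians of 0.19 and 0.04. PR 1 was above PR 2 in this list by a median of 1.33. These shares and medians were not tested.

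Many genes without a parental count were read in DR cells. Of 22424 genes at 0 in all 3 parental libraries, 4844 had a count in DR cells and 912 had at least 10, of which 683 were protein coding and 198 lncRNA genes. The number with at least 10 was 150 in CR cells and 777 and 932 in PR cells. Depth differed, at 79627093 counts in CR cells and 73958243 and 59499787 in PR cells. These 22424 genes together took 384 CPM in DR cells, 98.2 in CR cells and 435 and 617 in PR cells. Since the genes were chosen for a parental 0, each parental library was treated the same way as a reference. Of the genes at 0 in the other two, 30 to 50 had at least 10 counts in the parental library left out and 1051 to 1168 in DR cells. The levels were low, with a median FPKM of 0.0460 over the 912 genes and a highest of 2.29. They included SLC51B, a subunit of a bile acid transporter (91 counts), TREM2, a receptor of myeloid cells (69), the salivary cystatin CST4 (57) and SMPX, a muscle protein (71). CST4 was at 0 in the CR and both PR libraries, and of the 912 genes 319 had a count in all 3 of them and 213 in none.

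**Figure D5:**
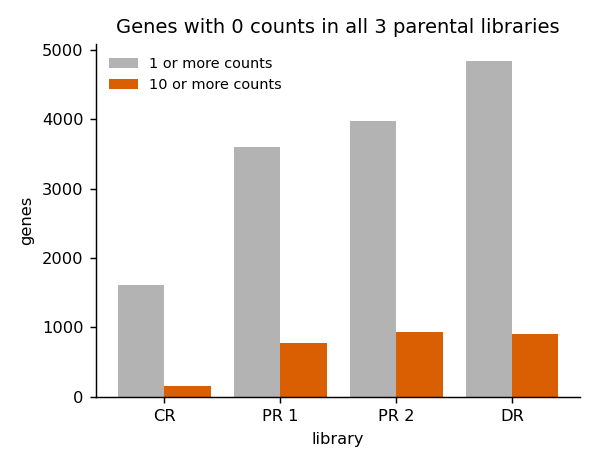
Number of genes, of the 22424 with 0 counts in all 3 parental libraries, with at least 1 count (grey bars) or at least 10 counts (orange bars) in each drug-survived library. The DR bars stand at 4844 and 912 genes, and the CR bars at 1606 and 150.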

How the data were processed

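RNA of 10 libraries was sequenced after poly(A) selection, and the 7 adherent H460 libraries were used here. Per the submitters' processing notes, the tools were bcl2fastq 1.8.4, Trimmomatic, HISAT2 2.1.0 and StringTie 2.1.3b, with the GRCh38 build. The authors deposited a raw read count and an FPKM, scaled by transcript length and library size, for each of 46427 genes in each library. A TPM in the same table was not used.

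Levels were compared on log2(FPKM + 1) for genes with a mean FPKM of at least 1 over the DR and parental libraries. The deposited counts of these genes were fitted with edgeR 4.0.16 (quasi-likelihood, TMM, 1 coefficient per group, 3 residual degrees of freedom) in R 4.3.3. The fit was run on simulated data with the same spread for every gene and library. That run could not test whether the DR library varies like the replicates. Alternatives used DESeq2 1.42.0, limma 3.58.1, other scalings, filters and pseudocounts, and left out each replicate. The members and the 26 gene lists were chosen with earlier results of these data known. Genes named were the 12 farthest from the nearest parental library in each direction among those that passed edgeR, list members of known role, and genes the study names. A further rule, for genes that passed between DR and the other drug-survived cells, named none. Symbols are those of the deposited table, and promoters are from RefSeq (GRCh38.p14). The parental libraries differed by more than 2-fold at 336 to 772 genes a pair and were counted as 3 replicates.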

Additional observations from a re-analysis of the deposited data

How the results depend on the processing

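No paired analysis was possible because the DR cells had 1 library with no replicate number. The 752 genes outside the parental range became 1353 against the mean of the parental libraries, 1736 against parental 2 alone, and 839 to 1233 with 1 parental library left out. The 840 genes called by edgeR became 1602 with DESeq2, 1512 with no filter except a total count above 0, 1761 with filterByExpr and 244 to 1292 with 1 parental or PR library left out. Of these, 244 were called without parental 2 and 1292 without parental 3. With the name form as covariate, a setting chosen after seeing the data, 76 were called. The share of higher genes among the calls was 52.9%, and 46.3% with DESeq2, 72.7% with no filter, 71.0% with filterByExpr, 75.4% without parental 2 and 86.8% with the name form. The cause was not tested. The comparison with the other drug-survived cells gave 2 genes with DESeq2 and 0 under every other alternative run. The 24 genes farthest from the parental libraries kept their direction in all 13 alternative fits. All 24 passed in each except without parental 2 (15), without parental 3 (22) and with the name form (12). With 1 DR library, no setting gives a replicate check of the DR cells themselves.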

Other observations

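The gene families described here were chosen after their values were seen, and their counts are descriptions. Histone genes, which package DNA, went both ways in DR cells. Of 29 tested, 14 rose and 4 fell in edgeR at an adjusted p under 0.05, and 8 rose and 0 fell with the name form as covariate. Among all genes tested, 3.77% rose and 3.36% fell. The filter let in genes such as H4C8, with a parental mean of 0.680, only through the DR value. H1-2, a linker histone, was 6.93, 12.3 and 4.39 in parental 1, 2 and 3 and 158 in DR cells (FPKM), 20.1-fold higher than their mean (adjusted p = 0.00104). H2AC6 was 1.46, 2.39 and 2.103 against 23.6, H2BC5 3.01, 2.91 and 2.55 against 17.9, and H4C8 0.624, 0.409 and 1.01 against 11.1. Each stood above the whole parental range. The mRNAs of replication-dependent histones normally end without a poly(A) tail, and the libraries were made from poly(A) RNA. H2AC18 and H2AC19, and H4C14 and H4C15, are near-identical copies whose reads can be shared, so their levels are uncertain. Of the histone variants, H2AZ1 fell 6.29-fold from 420.03 ± 118 (SD, n = 3) to 66.7 and H2AZ2 fell 2.54-fold. H1-2 was also high in the other drug-survived libraries, at 157 in CR cells and 73.7 and 119.7 in PR cells.

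Of 12 genes of alpha-, beta- and gamma-tubulins, 3 fell and 0 rose (all genes tested, 3.36% and 3.77%), and with the name form 0 fell. TUBB3 was at 76.7 in DR cells against 63.5 to 92.5 in the parental libraries, and TUBG2 lay above every parental library without passing. TUBA1B was 2137, 1705 and 1244 in the parental libraries and 445 in DR cells (3.81-fold, adjusted p = 0.0221), with 253 in CR cells and 688 and 689.9 in PR cells. TUBB2B was 13.4 in DR cells, 8.10 in CR cells and 22.1 and 30.4 in PR cells, so DR cells lay between the other drugs for both genes. Of 8 S100 genes 2 rose (all genes tested, 3.77%), S100A4 (3.99-fold) and S100A3 (10.4-fold), and 1 with the name form. S100A4 was 3127 in DR cells, 2845 in CR cells and 1389 and 2423 in PR cells. S100A3 was 69.2 in DR cells, 53.9 in CR cells and 51.6 and 104 in PR cells. Of 3 metallothioneins, which bind metals, 2 fell (all genes tested, 3.36%), MT1X by 8.15-fold and MT1A by 5.03-fold, and with the name form 0. MT1X was 1.03 in DR cells, 2.62 in CR cells and 2.13 and 2.56 in PR cells. MT1A was 3.40 in DR cells, 2.95 in CR cells and 5.42 and 2.45 in PR cells.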
